A study of Mus musculus with 29 samples.

Results

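The genes described here are 44 mouse genes that type I or type II interferon is known to induce, listed by symbol. Of these, 43 matched a gene among the 23366 counted in each library, and all 43 passed the filter on low counts in every fit, while Ifi27 matched none. RNA was sequenced in 29 libraries of bone marrow stem and progenitor cells from C57BL/6 mice of 8 to 12 weeks, with males and females pooled per the labels. Cells without lineage markers that carried cKit and Sca1 were sorted on CD150, a surface receptor of blood stem cells, into a CD150-positive fraction and a CD150-negative fraction of multipotent progenitors. The series asked how loss of Mysm1, a chromatin deubiquitinase of histone H2A, acts through Bbc3, the gene of the p53-induced cell death protein Puma.

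The labels gave 4 genotypes. Libraries named A were Mysm1-/-Puma+/- (3 CD150-negative, 4 CD150-positive), which the submitters used in place of Mysm1-/- mice, so these animals also lacked 1 copy of Puma. Libraries named B or P were Mysm1-/-Puma-/- (3 and 7), those named C were Puma-/- (3 and 2), and those named D or W were wild type (3 and 4). No label says that replicates are different animals, and p-values therefore reflect library-to-library spread, part of which may be technical. Library totals ran from 12304713 to 54339749 counts. Levels are CPM (counts scaled to library size) adjusted by the trimmed mean of M values.

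Mysm1 counts were at 66.4 to 122 CPM in the libraries labelled Mysm1-/- and 98.5 to 126 CPM in wild type, and Bbc3 counts were at 15.9 to 45.0 CPM in Mysm1-/- libraries of either Puma genotype and 2.85 to 7.78 CPM in wild type. The part of each gene that the alleles remove was not given in the sources used here, so counts over the whole gene do not check the labels, and the genotypes below are as labelled. Stem and progenitor markers summed to 1342 to 2343 CPM in the wild-type and Mysm1-/- libraries. Reads on 1471 receptor genes of the olfactory kind, taken as background, ran from 622 to 9003 CPM. The CD150-negative library B1 and the CD150-positive libraries B5, C2-5 and D2 lay above 1.5 times the median of their population.

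Interferons are secreted alarm proteins. Type I interferons act through the receptor Ifnar and a complex with STAT2 and IRF9 that binds the interferon-stimulated response element (ISRE), and type II interferon acts on genes with a gamma-activated site (GAS). Many of the target genes have both inputs, and their products block viruses, sense foreign nucleic acid, present antigen or feed back on the pathway. In blood stem cells interferon is known to drive division, and Sca1, the product of Ly6a that was used here to sort the cells, is itself induced by interferon.

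Promoters are shown for the 3 members with the smallest adjusted p among those that passed a test and hold an ISRE core before the start. The sequences are from RefSeq (GRCm38.p6), are the 250 bases before the transcription start, and are written 5′ to 3′ on the gene's strand. Capitals mark matches to the ISRE core GAAANNGAAA or the GAS core TTCNNNGAA. In Bst2 (chr8:71537473-71537722, minus strand) 2 ISRE matches and 1 GAS match overlap each other, in Igtp (chr11:58199306-58199555, plus strand) the cores lie side by side close to the start, and Oas3 (chr5:120777660-120777909, minus strand) has 1 ISRE match.
Bst2: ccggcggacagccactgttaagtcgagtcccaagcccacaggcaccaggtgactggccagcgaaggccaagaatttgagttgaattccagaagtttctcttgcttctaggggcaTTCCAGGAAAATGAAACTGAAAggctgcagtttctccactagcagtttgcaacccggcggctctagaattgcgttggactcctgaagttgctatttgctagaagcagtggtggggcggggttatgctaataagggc
Igtp: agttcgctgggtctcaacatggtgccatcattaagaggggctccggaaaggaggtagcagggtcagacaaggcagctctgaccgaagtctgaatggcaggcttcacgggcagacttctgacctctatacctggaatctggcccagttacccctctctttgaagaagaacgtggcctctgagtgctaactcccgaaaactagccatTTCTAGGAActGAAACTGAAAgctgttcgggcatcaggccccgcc
Oas3: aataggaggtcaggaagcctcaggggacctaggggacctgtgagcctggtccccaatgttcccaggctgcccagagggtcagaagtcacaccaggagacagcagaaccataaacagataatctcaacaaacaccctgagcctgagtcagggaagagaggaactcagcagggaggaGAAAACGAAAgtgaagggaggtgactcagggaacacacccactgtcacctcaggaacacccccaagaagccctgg

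Matches were counted on both strands in windows from 250 bases before to 50 after each start. Of the 43 members, 32 had a promoter entry. The ISRE core occurred in 16 of these 32 genes (50%), against 3.99% of the 27025 genes with an entry. The GAS core occurred in 10 of 32 (31.2%), against 9.55% of all genes. Both cores were found in Bst2, Eif2ak2, Igtp, Irgm2 and Oas1a. A match describes letters and is no proof of binding.

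All 43 members were detected in every library, with a lowest count of 39 (Oasl1). Per kilobase of gene model, the highest mean levels belonged to antigen-processing genes. Psmb8, a proteasome subunit of the immune type, stood at 181 CPM per kilobase, Tap2, a subunit of the peptide transporter, at 77.4, and the RNA-activated kinase gene Eif2ak2 (Pkr) at 65.2. The antiviral dynamin gene Mx2 was lowest at 1.61 CPM per kilobase. Members varied unequally between libraries: the SD of log2 CPM over the 29 libraries was largest for Mx1 (0.87), Iigp1 (0.77), Oas2 (0.77) and Zbp1 (0.74) and smallest for Ifi35 (0.24). Most members moved together across libraries, as a description over 29 libraries that share population, genotype and depth. Rsad2 (Viperin) had a Pearson correlation of 0.92 with the mean of the other members, Stat2 0.91 and Mx1 0.91. Isg15 (-0.09), Eif2ak2 (-0.13), Psmb8 (-0.13) and Xaf1 (-0.04) did not follow that mean.

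The mean log2 CPM of the 43 members shows which libraries carried high levels. In CD150-negative cells it was 5.46, 5.51 and 5.33 in wild type, 5.41, 5.21 and 5.60 in Puma-/-, 5.13, 5.39 and 5.91 in Mysm1-/-Puma+/- and 5.83, 5.92 and 5.89 in Mysm1-/-Puma-/-. The Mysm1-/-Puma-/- libraries lay close together above every wild-type library, whereas the Mysm1-/-Puma+/- libraries lay on both sides of wild type. In CD150-positive cells the values were 5.24, 5.10, 5.25 and 5.53 in wild type, 5.11 and 5.20 in Puma-/-, and 5.01, 5.12, 5.63 and 6.19 in Mysm1-/-Puma+/-. The 7 Mysm1-/-Puma-/- libraries ran from 5.56 to 5.77 with a median of 5.70. The SD was 0.54 among the 4 Mysm1-/-Puma+/- libraries and 0.08 among the 7 Mysm1-/-Puma-/- libraries. A4 of the CD150-positive cells alone held the highest value of 20 of the 43 members, and A3 of the CD150-negative cells that of 8.

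**Figure D1:**
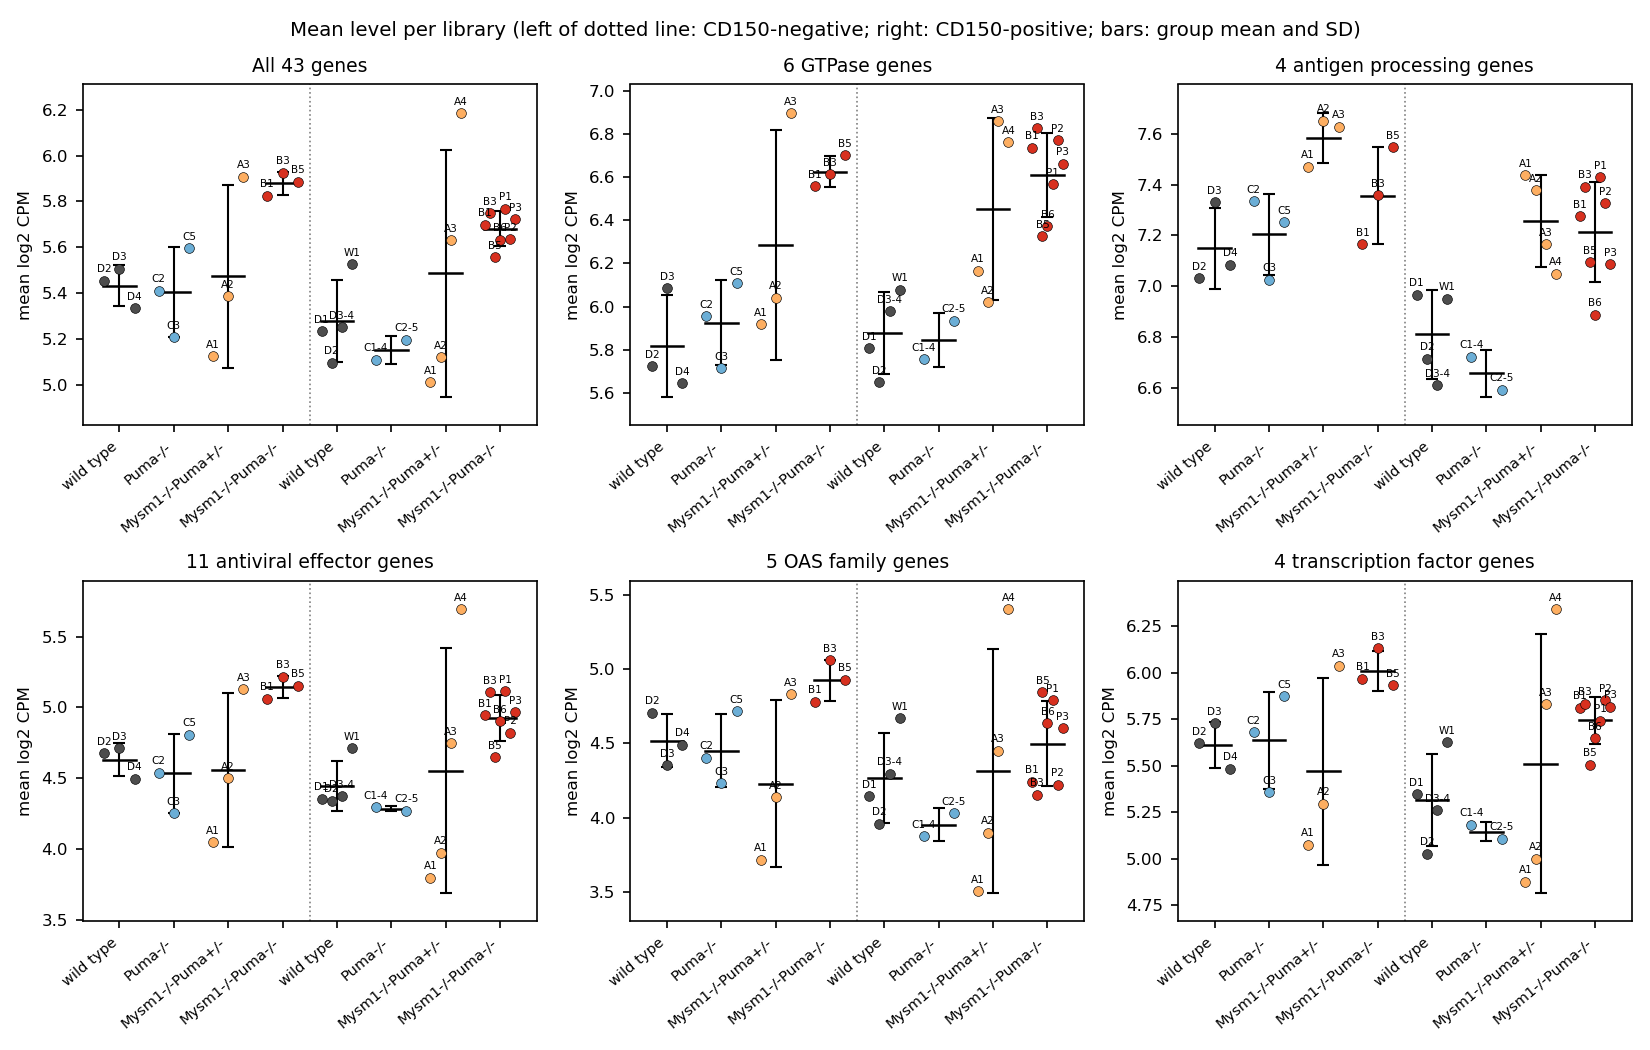
Mean log2 CPM of the 43 members and of role groups (vertical axis) in each library by genotype and population, with points for libraries and lines for the group mean and SD. In the panel of all 43 members the Mysm1-/-Puma-/- libraries sit close together above wild type, and Mysm1-/-Puma+/- libraries spread from 5.01 to 6.19 in CD150-positive cells. The first does not hold in each role group. In CD150-positive cells the oligoadenylate synthetases are at 4.16 to 4.85 in Mysm1-/-Puma-/- against 3.96 to 4.67 in wild type.

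**Figure D2:**
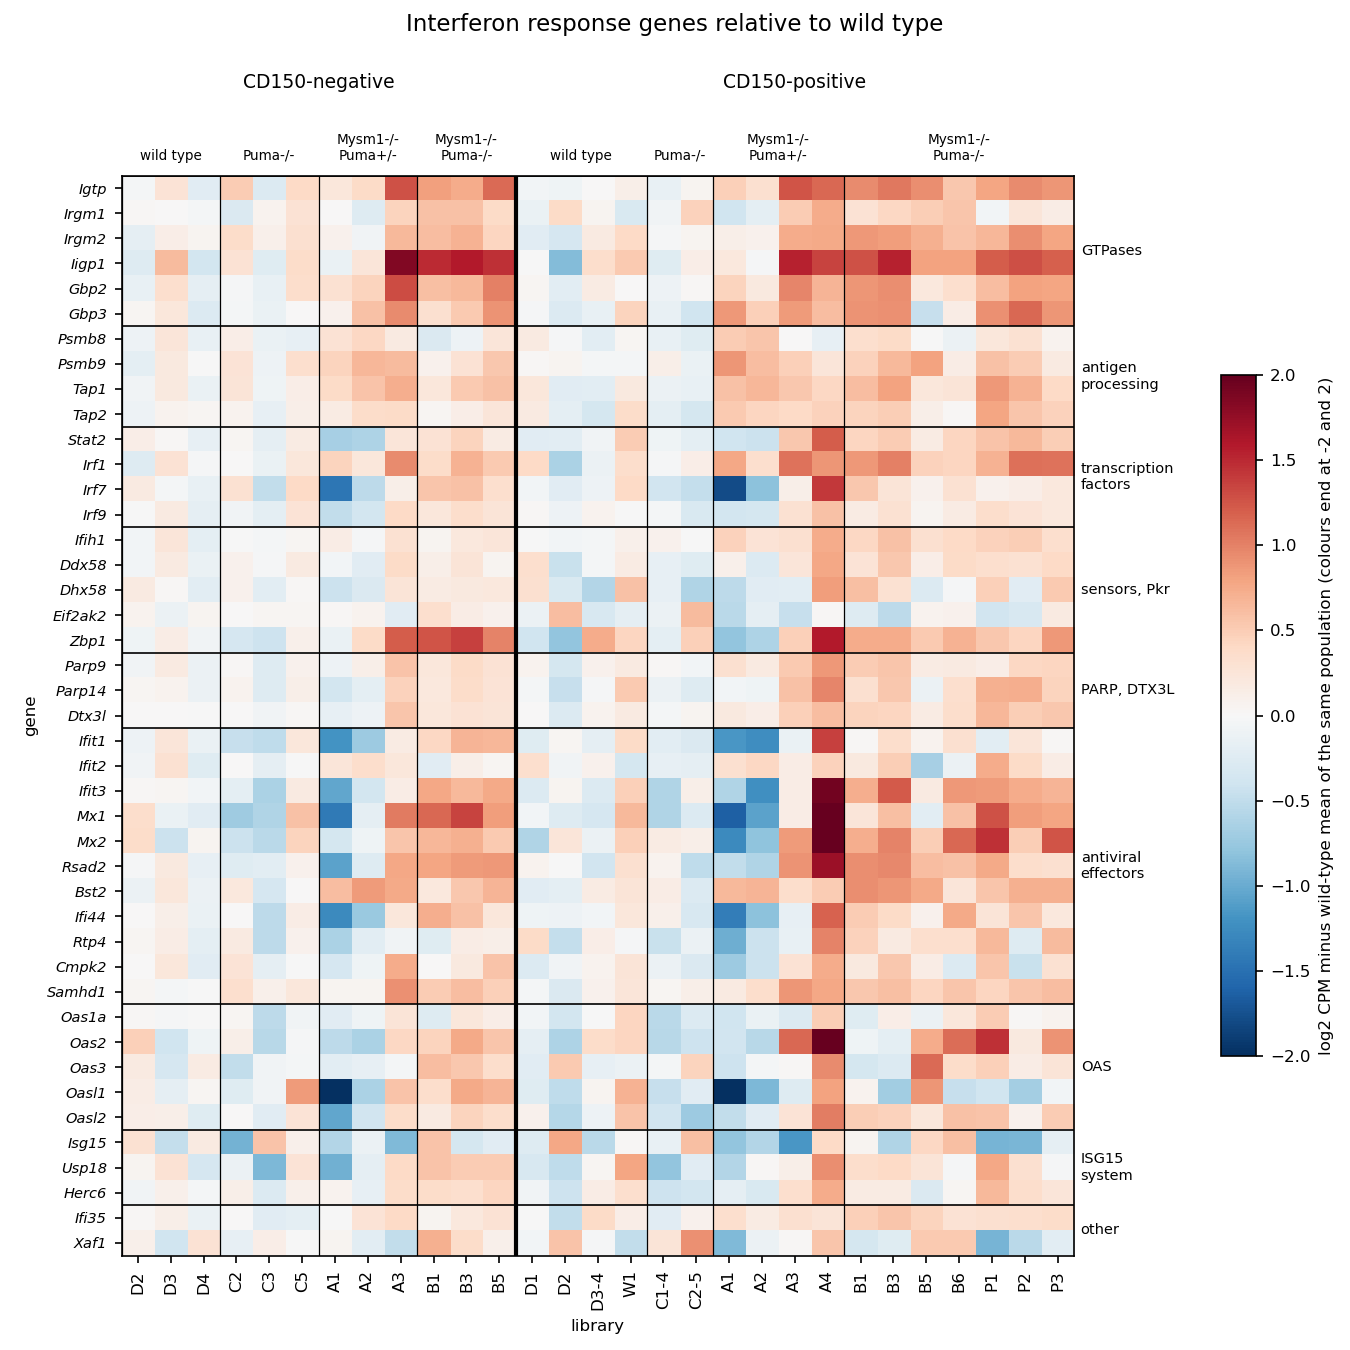
Each member's log2 CPM in each library less the wild-type mean of the same population, with members in rows by role and libraries in columns by group. The A4 column of the CD150-positive cells and the A3 column of the CD150-negative cells are high in many antiviral genes, and the columns A1 and A2 are low in many of them.

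Mysm1 loss was tested against wild type in 4 comparisons, 2 genotypes in each of 2 populations, by edgeR's quasi-likelihood test with adjustment over all genes tested. Both genotypes of a population share the same wild-type libraries, so their results are not independent of each other. Few members passed: Igtp rose in both genotypes of CD150-positive cells, Zbp1 rose in CD150-negative Mysm1-/-Puma-/- cells, and no member fell. Below the threshold, most differences were positive, and the interferon-inducible GTPases had the largest median of the role groups in each of the 4 comparisons. In bulk RNA, fewer cells of a type and less RNA per cell cannot be told apart.

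For Mysm1-/-Puma+/- against wild type in CD150-negative cells, 0 of 43 members passed an adjusted p of 0.05 by edgeR. The edgeR share of all genes that passed, in either direction, was 0.869%. With DESeq2 3 members passed, and the DESeq2 share of all genes is not given here. At an unadjusted p under 0.05, 11 members were higher and none lower, where 5.53% of all genes were higher. The groups did not overlap for 5 members, all higher, where 7.43% of all genes were. The median log2 difference of the members was 0.13, with 27 positive, and that of all genes was -0.05. Without library A3 the median was -0.10. At an unadjusted p under 0.05, 3 members were then higher (5.13% of all genes) and 10 lower (share of all genes not given here). The members with the smallest p were Bst2 (0.77 ± 0.19, adjusted p = 0.0745), Tap1 (0.59 ± 0.16, adjusted p = 0.134), Psmb9 (0.60 ± 0.17, adjusted p = 0.151) and Gbp2 (0.76 ± 0.24, adjusted p = 0.209), as log2 differences with their SE.

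For Mysm1-/-Puma-/- against wild type in the same population, 1 of 43 members passed, where 2.31% of all genes did. At an unadjusted p under 0.05, 15 members were higher (5.64% of all genes), and 28 did not overlap with wild type and were higher (11.7% of all genes). The median was 0.39 with 38 positive, against 0.02 for all genes. It ran from 0.31 to 0.41 when each library was left out in turn, while the unadjusted count was 8 without B3 (3.36% of all genes), 9 without D4 (5.49%) and 11 to 16 without one of the others.

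For Mysm1-/-Puma+/- against wild type in CD150-positive cells, 1 of 43 members passed, where 0.454% of all genes did. The unadjusted count was 15 higher (5.38% of all genes), and 9 members did not overlap and were higher (2.33% of all genes). The median of 0.40, with 39 positive, stood against -0.05 for all genes. Without library A4 the median was 0.09. At an unadjusted p under 0.05, 14 members were then higher (6.82% of all genes) and 3 lower (share not given here). Thus the number of members higher was nearly the same without A4, while the share of all genes was larger and the median smaller.

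For Mysm1-/-Puma-/- against wild type in CD150-positive cells, 1 of 43 members passed, where 0.291% of all genes did. There were 17 members higher at an unadjusted p under 0.05 (4.56% of all genes) and 10 that did not overlap and were higher (1.05% of all genes). The median was 0.42 with 39 positive, against -0.05 for all genes, and it ran from 0.34 to 0.51 when each library was left out.

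**Figure D3:**
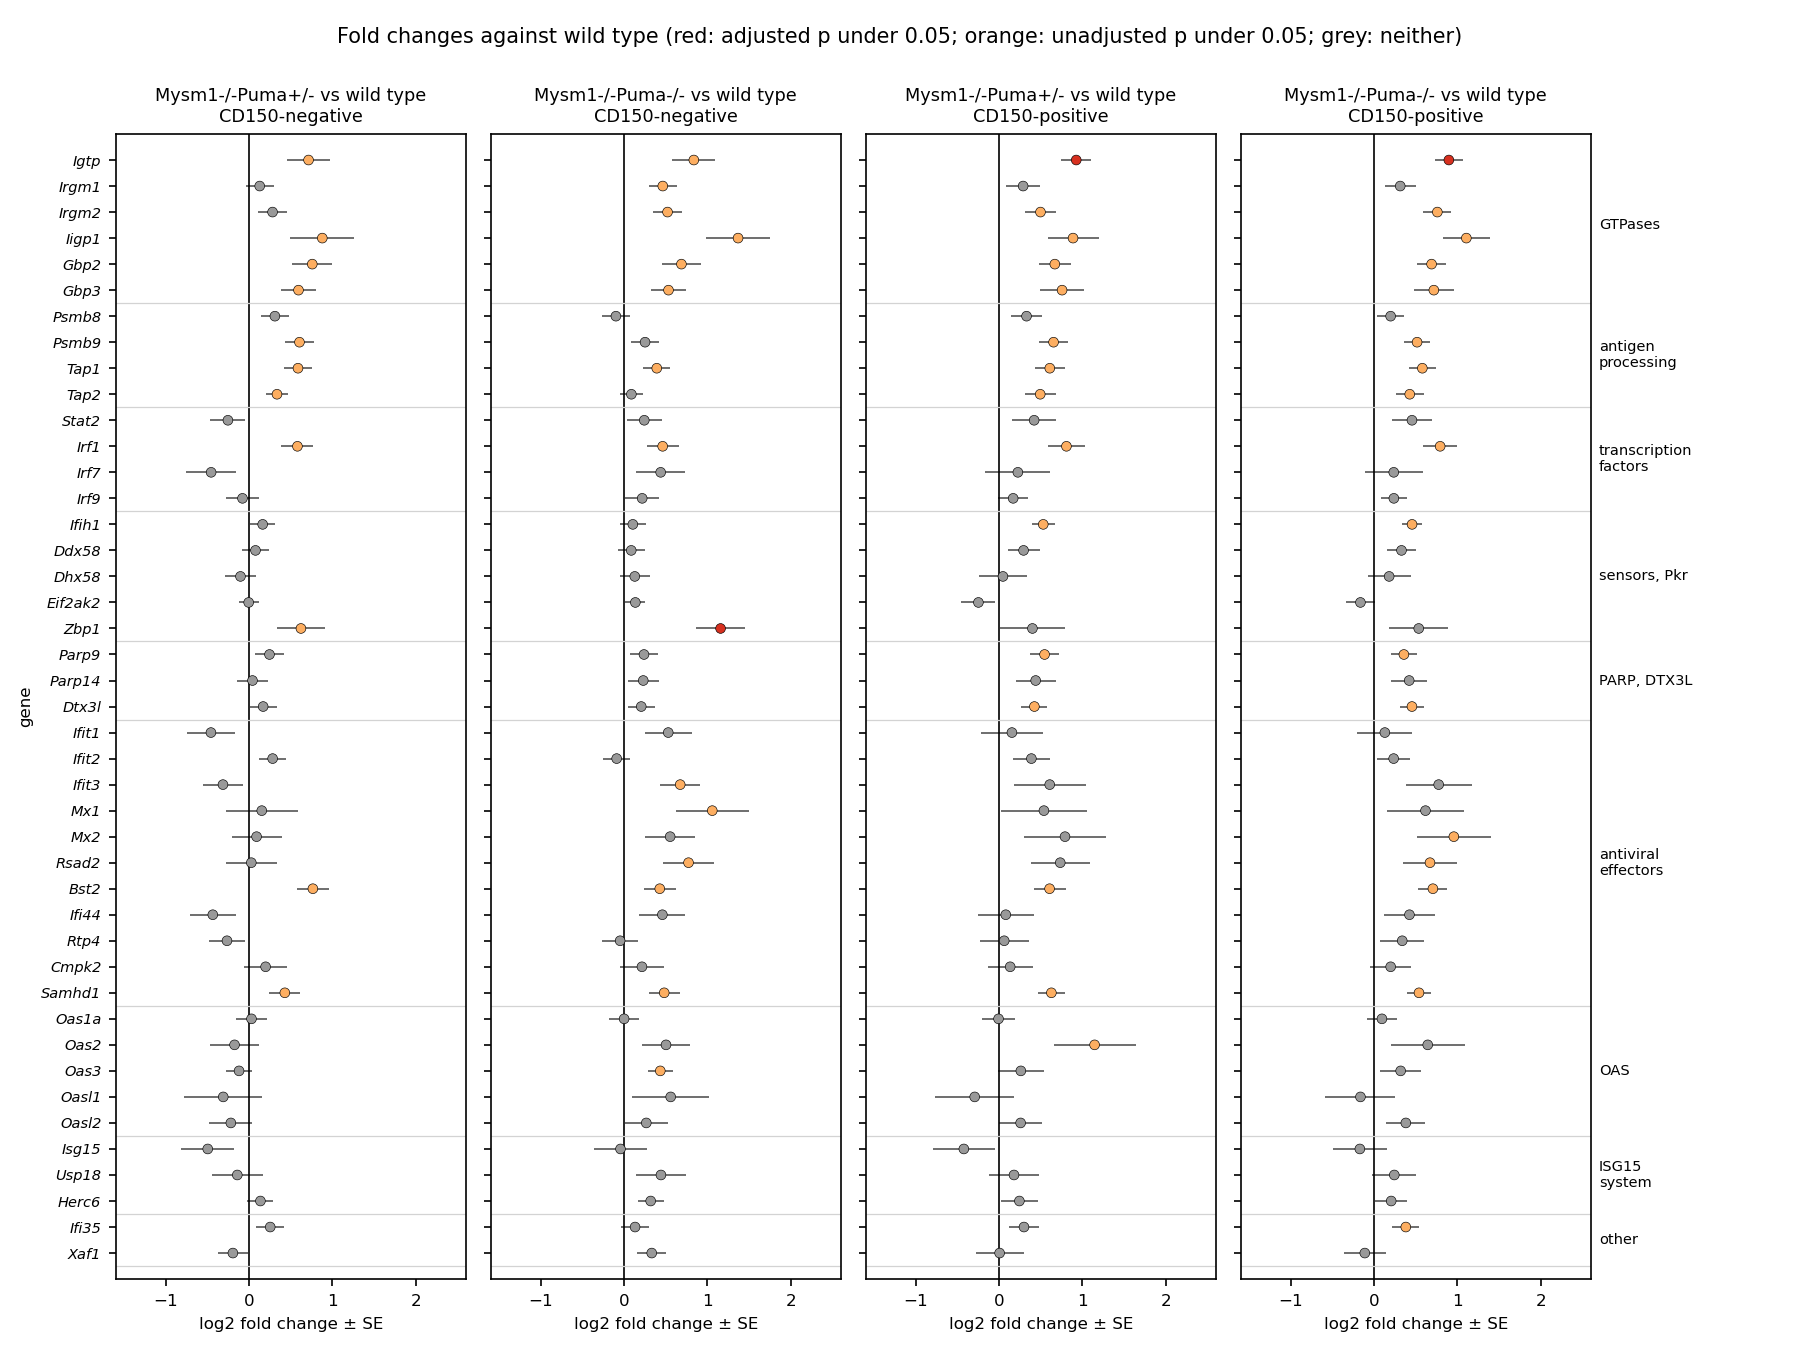
Log2 fold change with SE (horizontal axis) of each member, by role, in the 4 comparisons of Mysm1-/- groups with wild type. Filled colours mark the adjusted and unadjusted thresholds: Igtp passes in both CD150-positive panels, Zbp1 in the CD150-negative Mysm1-/-Puma-/- panel, and no member passes downward.

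The GTPases of the Irg and Gbp families attack the vacuoles of intracellular microbes and answer strongly to type II interferon. Their group median was 0.65 and 0.61 in CD150-negative Mysm1-/-Puma+/- and Mysm1-/-Puma-/- cells against wild type, and 0.71 and 0.74 in CD150-positive cells. Igtp (Irgm3; 11:58013058-58021093, plus strand, NCBIM37) was at 42.9, 42.2, 45.1 and 48.5 CPM in CD150-positive wild type. The Mysm1-/-Puma+/- libraries had 62.1, 55.5, 107 and 99.3 CPM, and the 7 Mysm1-/-Puma-/- libraries had 65.1 at the lowest, 84.8 at the median and 92.8 at the highest. Puma-/- libraries had 40.1 and 46.5 CPM. Every CD150-positive Mysm1-/- library was above every library with Mysm1. The log2 rise was 0.93 ± 0.18 in Mysm1-/-Puma+/- (adjusted p = 0.0175) and 0.90 ± 0.17 in Mysm1-/-Puma-/- (adjusted p = 0.0104). The first call was lost without A3 (0.75, adjusted p = 0.102), A4 (0.83, adjusted p = 0.0554), D1 (0.91, adjusted p = 0.0667), D2 (0.88, adjusted p = 0.0778) or D3-4 (0.94, adjusted p = 0.0578). The second was lost without D1 (0.89, adjusted p = 0.0591), D2 (0.85, adjusted p = 0.0659) or D3-4 (0.91, adjusted p = 0.0508). Leaving out both W and P libraries also ended both calls, at 0.96 (adjusted p = 0.0645) and 0.94 (adjusted p = 0.157).

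CD150-negative Igtp levels were 34.6, 43.3 and 30.4 CPM in wild type, 50.7, 29.5 and 46.9 in Puma-/-, 41.8, 46.4 and 86.3 in Mysm1-/-Puma+/- and 63.4, 60.1 and 78.1 in Mysm1-/-Puma-/-. Here only the Mysm1-/-Puma-/- libraries were all above wild type, and neither difference passed, at 0.71 ± 0.26 (adjusted p = 0.313) and 0.84 ± 0.26 (adjusted p = 0.118). Iigp1 (Irga6), a GTPase of the same family, varied more. It was at 34.3, 63.4 and 31.7 CPM in CD150-negative wild type, 37.6, 48.4 and 149 in Mysm1-/-Puma+/-, 115, 123 and 112 in Mysm1-/-Puma-/- and 50.1, 34.5 and 52.9 in Puma-/-. Library A3 thus stood with the Mysm1-/-Puma-/- libraries and A1 and A2 with wild type. In CD150-positive cells Iigp1 was at 52.8, 29.2, 67.5 and 76.6 CPM in wild type, 45.1 and 58.5 in Puma-/-, 61.8, 52.5, 154 and 135 in Mysm1-/-Puma+/-, and 92.7 to 155 (median 123) in Mysm1-/-Puma-/-. The same split within the Mysm1-/-Puma+/- group appeared there, between A1 and A2 on the one side and A3 and A4 on the other. The Iigp1 difference for Mysm1-/-Puma-/- was 1.37 ± 0.39 (adjusted p = 0.0803) in CD150-negative and 1.11 ± 0.28 (adjusted p = 0.131) in CD150-positive cells.

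Irgm2, a regulator of the other Irg proteins and the neighbour of Igtp on chromosome 11 (58028530-58036282, plus strand), missed the threshold narrowly in CD150-positive Mysm1-/-Puma-/- cells at 0.76 ± 0.17 (adjusted p = 0.0508). Its levels were 40.8, 38.1, 54.1 and 63.0 CPM in wild type and 71.1 to 91.5 (median 83.2) in Mysm1-/-Puma-/-. These ranges did not overlap. Gbp3 had the highest level per kilobase of the GTPases. It was at 81.0, 68.0, 74.7 and 112 CPM in CD150-positive wild type, 151, 115, 148 and 126 in Mysm1-/-Puma+/- and 60.1 to 182 (median 154) in Mysm1-/-Puma-/-, where libraries B5 and B6 overlapped with wild type.

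For antigen processing, the mean levels of all Mysm1-/-Puma+/- libraries lay above those of wild type. The group median was 0.46 in CD150-negative and 0.55 in CD150-positive Mysm1-/-Puma+/- cells, and 0.17 and 0.47 in Mysm1-/-Puma-/- cells. The mean log2 CPM of the 4 genes was 7.47 to 7.65 in CD150-negative Mysm1-/-Puma+/- libraries and 7.03 to 7.33 in wild type. In CD150-positive cells these ranges were 7.05 to 7.44 and 6.61 to 6.97. No single gene passed. Tap2 (17:34340472-34353266, plus strand) was at 160, 123, 110 and 182 CPM in CD150-positive wild type, 203, 190, 185 and 193 in Mysm1-/-Puma+/-, 144 to 244 (median 193) in Mysm1-/-Puma-/- and 123 and 110 in Puma-/-. Psmb8, the most abundant member per kilobase, was at 210, 182, 160 and 191 CPM in wild type and 262, 272, 186 and 165 in Mysm1-/-Puma+/-, with overlapping groups. For Psmb8 it was A1 and A2, the libraries low in antiviral genes, that were high.

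Among the antiviral effectors, Bst2 (tetherin, which holds budding virus at the cell surface; 8:74058163-74061336, minus strand) was higher in every Mysm1-/-Puma+/- library than in each wild-type library of the same population. Its levels were 24.0, 30.4 and 23.9 CPM in CD150-negative wild type and 39.9, 46.9 and 44 in Mysm1-/-Puma+/-, then 29.9, 37.9 and 41.5 in Mysm1-/-Puma-/- and 30.2, 20.5 and 26.0 in Puma-/-. CD150-positive levels were 15.4, 15.6, 20.1 and 21.6 in wild type, 28.2, 28.8, 23 and 25.7 in Mysm1-/-Puma+/-, 21.2 to 34.2 (median 29.6) in Mysm1-/-Puma-/- and 19.9 and 14.9 in Puma-/-. None of these differences passed. For the CD150-negative Mysm1-/-Puma+/- difference of 0.77, the adjusted p was 0.0122 with DESeq2 and 0.0447 without the library of high background, and ran from 0.0122 to 0.478 over all alternatives.

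The large dynamin-like GTPase gene Mx1, whose product in C57BL/6 mice comes from a defective allele, had the largest spread of the members. Its CD150-positive levels were 8.66, 7.43, 7.11 and 14 CPM in wild type, 2.85, 4.21, 9.94 and 35.7 in Mysm1-/-Puma+/-, 7.70 to 21.8 (median 13.7) in Mysm1-/-Puma-/- and 5.85 and 7.37 in Puma-/-. The Mysm1-/-Puma+/- libraries thus held both the lowest and the highest values. CD150-negative levels were 15.3, 10.9 and 10.2 CPM in wild type, 4.45, 10.5 and 24.6 in Mysm1-/-Puma+/-, 26.6, 30.7 and 21.4 in Mysm1-/-Puma-/- and 7.30, 7.86 and 17.9 in Puma-/-. Every Mysm1-/-Puma-/- library was above wild type, and the difference of 1.06 ± 0.44 did not pass (adjusted p = 0.288). The median over the 11 antiviral genes was 0.09 for Mysm1-/-Puma+/- and 0.48 for Mysm1-/-Puma-/- in CD150-negative cells, and 0.54 for both in CD150-positive cells.

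Zbp1, a sensor of Z-form nucleic acid that can start necroptosis (2:173032113-173044424, minus strand), was the only member called in CD150-negative cells against wild type. Wild-type levels were 5.63, 6.63 and 5.72 CPM and Puma-/- levels 4.74, 4.46 and 6.45. Mysm1-/-Puma+/- libraries had 5.46, 7.84 and 13.9 CPM and Mysm1-/-Puma-/- libraries 14.3, 15.5 and 11.9. All 3 Mysm1-/-Puma-/- libraries were above every library with Mysm1, and so were A2 and A3. The rise against wild type was 1.16 ± 0.29 (adjusted p = 0.0455). It lost its call without any one of the 6 libraries B1, B3, B5, D2, D3 or D4, at 1.04 to 1.29 and an adjusted p of 0.0546 to 0.201. In CD150-positive cells Zbp1 was at 7.77, 5.89, 17.2 and 13.8 CPM in wild type, 8.96 and 14.2 in Puma-/-, 5.89, 6.63, 14.2 and 30.8 in Mysm1-/-Puma+/- and 13.8 to 18.7 (median 16.7) in Mysm1-/-Puma-/-, with overlapping ranges.

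The other sensors were steadier. Ddx58 (RIG-I) and Dhx58 (LGP2), receptors of viral RNA, had no difference above 0.33 from wild type in either Mysm1-/- genotype. Ifih1 (MDA5), a receptor of long double-stranded RNA, was at 66.1, 64.3, 65.2 and 72.0 CPM in CD150-positive wild type, 92.5, 81.1, 83.2 and 112 in Mysm1-/-Puma+/-, 83.8 to 101 (median 89.4) in Mysm1-/-Puma-/- and 71.0 and 66.3 in Puma-/-. The Mysm1-/- ranges lay above wild type, at 0.53 ± 0.14 (adjusted p = 0.107) and 0.46 ± 0.12 (adjusted p = 0.174), without passing. Eif2ak2 was at 314, 525, 273 and 301 CPM in wild type and 234, 300, 247 and 346 in Mysm1-/-Puma+/-, and D2, the highest wild-type library, also had high background reads.

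Among the transcription factors, Irf1, an activator of further interferon-induced genes, had the highest level per kilobase. Its CD150-positive levels were 83.9, 41.3, 59.0 and 81.1 CPM in wild type, 63.0 and 70.3 in Puma-/-, 110, 80.7, 136 and 118 in Mysm1-/-Puma+/- and 86.4 to 137 (median 116) in Mysm1-/-Puma-/-. In CD150-negative cells they were 81.0, 119 and 95.4 in wild type, 97.5, 88.9 and 114 in Puma-/-, 133, 114 and 187 in Mysm1-/-Puma+/- and 125, 157 and 141 in Mysm1-/-Puma-/-. The differences did not pass, at 0.81 ± 0.22 (adjusted p = 0.153), 0.79 ± 0.20 (adjusted p = 0.14), 0.58 ± 0.19 (adjusted p = 0.249) and 0.46 ± 0.19 (adjusted p = 0.29) in that order of groups. Irf7, Irf9 and Stat2, which serve the type I branch, had no unadjusted p under 0.05 against wild type in any of the 4 comparisons.

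The oligoadenylate synthetases, which activate RNase L, and the ISG15 system of ubiquitin-like tagging are parts of the type I response. For the 5 synthetases the median was -0.18 in Mysm1-/-Puma+/- and 0.43 in Mysm1-/-Puma-/- CD150-negative cells, and 0.26 and 0.32 in CD150-positive cells. For the 3 ISG15 genes it was -0.14, 0.32, 0.18 and 0.20 in the same order. Oas2 was at 5.72, 4.19, 8.34 and 8.78 CPM in CD150-positive wild type, 4.38 and 4.83 in Puma-/-, 4.93, 4.41, 14.4 and 34.7 in Mysm1-/-Puma+/- and 5.64 to 17.9 (median 10.9) in Mysm1-/-Puma-/-, with A4 the highest of all libraries. CD150-negative Oas2 was at 16.3, 8.84 and 11 in wild type, 12.7, 7.94 and 11.5 in Puma-/-, 8.11, 7.47 and 15.6 in Mysm1-/-Puma+/- and 15.9, 19.8 and 17.2 in Mysm1-/-Puma-/-. Oas1a, highest per kilobase of its group, stayed between 37.3 and 77.6 CPM over all 29 libraries, and its differences from wild type were at most 0.09 in size. Isg15 itself was at 8.55, 17.6, 7.02 and 10.4 CPM in CD150-positive wild type, 5.92, 6.83, 4.53 and 13.5 in Mysm1-/-Puma+/-, 5.34 to 15.5 (median 9.07) in Mysm1-/-Puma-/- and 9.21 and 15.6 in Puma-/-. In CD150-negative cells it was at 22.9, 13.2 and 20.9 in wild type, 9.55, 27.5 and 19.8 in Puma-/-, 12.3, 17.0 and 10.0 in Mysm1-/-Puma+/- and 27.6, 14.4 and 15.7 in Mysm1-/-Puma-/-. These groups overlapped throughout, and no difference of Isg15 from wild type had an unadjusted p under 0.05 in the 4 comparisons.

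The PARP and DTX3L group, partners in ADP-ribosylation and ubiquitination, had medians of 0.44 and 0.42 in CD150-positive and 0.17 and 0.23 in CD150-negative cells. Dtx3l, highest per kilobase of the 3, was at 150, 123, 157 and 169 CPM in CD150-positive wild type, 171, 163, 206 and 228 in Mysm1-/-Puma+/-, 166 to 236 (median 202) in Mysm1-/-Puma-/- and 145 and 155 in Puma-/-. Its ranges overlapped at the edges, and the differences of 0.42 ± 0.16 (adjusted p = 0.417) and 0.45 ± 0.14 (adjusted p = 0.307) did not pass.

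**Figure D4:**
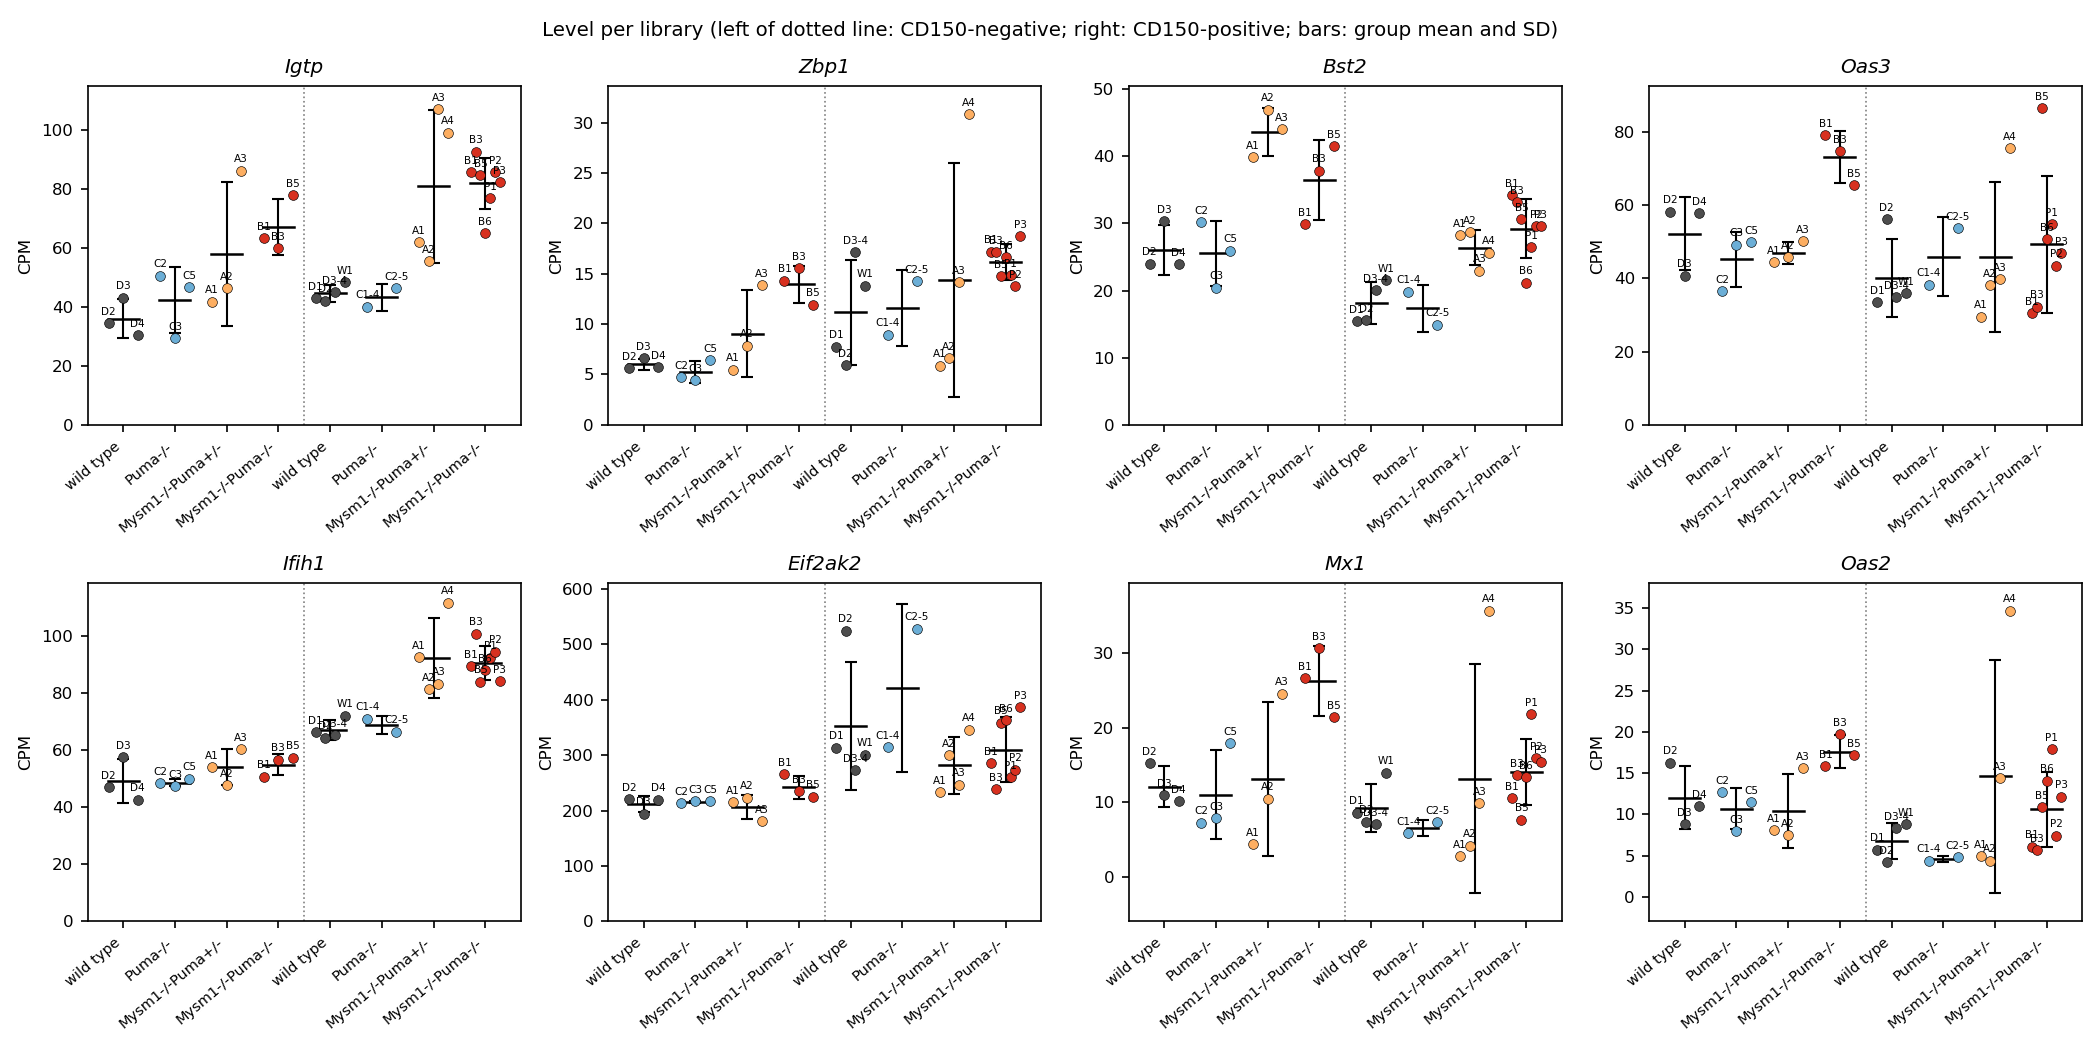
CPM (vertical axis) of members named in the text in each library by group, with points for libraries and lines for the group mean and SD. Igtp in CD150-positive cells is at 55.5 or more in every Mysm1-/- library and at 48.5 or less in every library with Mysm1.

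Other cell types were measured beside these results. Summed megakaryocyte markers were at 487, 545, 935 and 1237 CPM in the CD150-positive Mysm1-/-Puma+/- libraries A1 to A4, 378 to 920 in Mysm1-/-Puma-/- and 241 to 499 in wild type. In CD150-negative cells they were at 52.0 to 70.3 in Mysm1-/-Puma+/- and 33.8 to 37.5 in wild type. Dendritic cell markers, which include those of the plasmacytoid cells that make type I interferon, were at 311, 346 and 633 CPM in CD150-negative Mysm1-/-Puma+/- libraries A1, A2 and A3, 588 to 816 in Mysm1-/-Puma-/- and 618 to 747 in wild type. In CD150-positive cells they were at 94.8, 108, 117 and 164 CPM in A1 to A4 and 111 to 176 in wild type. The dendritic list holds Flt3, which is also one of the stem and progenitor markers. Its sum is therefore not specific to dendritic cells. Monocyte markers were at 271 to 336 CPM in CD150-negative Mysm1-/-Puma+/-, 204 to 380 in Mysm1-/-Puma-/- and 178 to 249 in wild type. In CD150-positive cells they were at 190 to 265, 188 to 252 and 192 to 242 CPM in the same order. T and NK cell markers, whose cells make type II interferon, ran from 37.9 to 131 CPM and B cell markers from 6.17 to 29 over all libraries. Erythroid markers were at 7.19, 28.9, 210.2 and 120.3 CPM in the CD150-positive Mysm1-/-Puma+/- libraries A1 to A4 against 178 to 341 in wild type, and at 8.44, 7.95 and 40.6 in the CD150-negative A1 to A3 against 43.9 to 46.7. Granulocyte markers were at 322, 483, 319 and 337 CPM in CD150-positive A1 to A4 (308 to 892 in wild type) and at 642, 1003 and 1225 in CD150-negative A1 to A3 (898 to 1938 in wild type). Within Mysm1-/-Puma+/-, the megakaryocyte, erythroid and dendritic sums were thus higher in A3 and A4 than in A1 and A2, the same split as for the members, in CD150-positive cells, and higher in A3 than in A1 and A2 in CD150-negative cells. The granulocyte and monocyte sums had that order in CD150-negative cells only, and the T and NK cell and B cell sums in neither population. The stem and progenitor markers of the sorted cells had it in both. Their sums were 1854, 1577, 1890 and 2079 CPM in CD150-positive A1 to A4. In CD150-negative A1 to A3 they were 1775, 1718 and 2311 CPM. The part of these cells in the members' differences was not tested.

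Mysm1 loss in the absence of Puma was tested as Mysm1-/-Puma-/- against Puma-/-. In CD150-negative cells 2 members rose, Zbp1 and Oas3, of 43 (1.35% of all genes passed in either direction). There were 18 members higher at an unadjusted p under 0.05 (5.06% of all genes), and 41 of 43 differences were positive with a median of 0.30, against 0.03 for all genes. The unadjusted count was 6 without C3, with a median of 0.18 (5.64% of all genes higher), 10 without B3 (3.18%) and 11 without B5 (5.56%). Zbp1 rose by 1.38 ± 0.29 (adjusted p = 0.0239), and lost its call without B1 (1.39, adjusted p = 0.0906), B3 (1.26, adjusted p = 0.123), C2 (1.33, adjusted p = 0.12) or C3 (1.24, adjusted p = 0.115). Oas3 (5:121203107-121227670, minus strand), the synthetase that makes long oligoadenylates, was at 36.6, 49.2 and 50.0 CPM in Puma-/-, 79.2, 74.8 and 65.5 in Mysm1-/-Puma-/-, 44.5, 45.8 and 50.2 in Mysm1-/-Puma+/- and 58.2, 40.7 and 57.7 in wild type. The 3 Mysm1-/-Puma-/- libraries were above all others of the population. Its rise of 0.65 ± 0.15 (adjusted p = 0.0419) was lost without B1, B3, C2, C3 or C5, at 0.53 to 0.70 and an adjusted p of 0.096 to 0.262, and kept without B5 (0.71, adjusted p = 0.0461). Oas3 in CD150-positive cells was at 33.6, 56.1, 34.8 and 36.0 CPM in wild type, 38.3 and 53.6 in Puma-/-, 29.5, 38.2, 39.8 and 75.6 in Mysm1-/-Puma+/- and 30.6 to 86.4 (median 46.9) in Mysm1-/-Puma-/-.

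The same contrast in CD150-positive cells rests on 2 Puma-/- libraries. No member passed by edgeR (0.115% of all genes did). With DESeq2 2 members passed, and the DESeq2 share of all genes is not given here. At an unadjusted p under 0.05 by edgeR, 25 of 43 were higher (4.90% of all genes). The median was 0.65 with 40 positive, and all genes had -0.09. The unadjusted count was 9 (1.01% of all genes) without C2-5, 1 of the 2 Puma-/- libraries and the one with the most background reads. It was 14 without the libraries of high background (1.55% of all genes) and 14 with background reads as a covariate (2.19%). The smallest p belonged to Igtp (0.99 ± 0.22, adjusted p = 0.101), Irgm2 (0.82 ± 0.22, adjusted p = 0.273), Tap1 (0.77 ± 0.21, adjusted p = 0.318) and Bst2 (0.81 ± 0.23, adjusted p = 0.321).

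Puma loss was tested with and without Mysm1, and no member passed in any of the 4 comparisons. Between Mysm1-/-Puma-/- and Mysm1-/-Puma+/- in CD150-negative cells, 1.24% of all genes passed by edgeR. With DESeq2 5 members passed, and the DESeq2 share of all genes is not given here. At an unadjusted p under 0.05, 9 members were higher (6.56% of all genes) and 2 were lower (share not given here). The lower members were Ifit2 (-0.37) and Psmb8 (-0.41). The smallest p belonged to Ifit3 (0.99 ± 0.24, adjusted p = 0.055) and Ifit1 (0.99 ± 0.29, adjusted p = 0.0855), whose products bind viral RNA, Oas3 (0.56 ± 0.15, adjusted p = 0.0733) and Ifi44 (0.90 ± 0.28, adjusted p = 0.105). Ifit3 was at 10.9, 17.4 and 24.8 CPM in Mysm1-/-Puma+/- and 38.7, 35.3 and 37.9 in Mysm1-/-Puma-/-, without overlap. Without A3, the highest Mysm1-/-Puma+/- library, 14 members passed, where 5.01% of all genes did, with 1.31 (adjusted p = 0.00429) for Ifit3, 1.46 (adjusted p = 0.00361) for Ifit1 and 1.42 (adjusted p = 0.00267) for Ifi44. The count thus rests on whether that library is in the group.

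In CD150-positive cells the same comparison gave 0 members at an unadjusted p under 0.05 in the upward direction (1.32% of all genes), 0 of 43 at the adjusted threshold (0% of all genes) and a median of 0.03. Without A4 there were 9 members higher at an unadjusted p under 0.05 (2.49% of all genes) and the median was 0.25, and with a replicate block by number 11 were higher (1.89%). The 4 smallest p belonged to Irgm2 (0.26), Parp9 (-0.19), Oas2 (-0.50) and Ifi44 (0.34), each with an adjusted p of 1. Oas2 turned to 0.35 without A4. Puma loss alone, Puma-/- against wild type, gave 0 of 43 members in both populations, where 0% of all genes passed, with 0 members at an unadjusted p under 0.05 in either direction, 0 with DESeq2, and medians of -0.03 in CD150-negative and -0.21 in CD150-positive cells. The smallest p there belonged to Irgm2 (0.25), Oas3 (-0.22), Samhd1 (0.21) and Oas1a (-0.18) in CD150-negative cells. In CD150-positive cells, with 2 Puma-/- libraries, they belonged to Oasl2 (-0.65), Oas1a (-0.48), Herc6 (-0.47) and Usp18 (-0.64), all with an adjusted p of 1.

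The 2 populations were compared within each genotype in a fit of all libraries, as CD150-positive less CD150-negative. Ifih1 rose in CD150-positive cells of all 4 genotypes, and the other calls were of Eif2ak2, Tap2, Bst2, Xaf1 and Ifit2 in 1 or 2 genotypes each. The members' medians were -0.17, 0.03, -0.17 and -0.38 in wild type, Mysm1-/-Puma+/-, Mysm1-/-Puma-/- and Puma-/-, against 0.05, -0.00, -0.07 and 0.15 for all genes. In wild type 3 of 43 members passed (7.15% of all genes), in Mysm1-/-Puma+/- 2 (5.90%), in Mysm1-/-Puma-/- 3 (12.3%) and in Puma-/- 3 (4.94%). At an unadjusted p under 0.05, 10 members were lower and 3 higher in Puma-/-, 5 lower and 3 higher in wild type, 3 and 5 in Mysm1-/-Puma+/-, and 5 and 2 in Mysm1-/-Puma-/-. Over all 21830 genes tested, 1691 were lower and 1882 higher in Puma-/-. With the compared groups alone the members counted 19 lower and 3 higher in Puma-/-, and 11 and 3 in wild type. The shares of all genes lower and higher are not given here for that setting, nor for the other genotypes in the main fit. Those counts are therefore not read as results about the members. The Mysm1-/-Puma+/- median of 0.03 was -0.19 without CD150-positive A4 and 0.34 without CD150-negative A3.

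Ifih1 (2:62433850-62484312, minus strand) was at 46.9, 57.5 and 42.6 CPM in CD150-negative wild type, 48.4, 47.4 and 49.9 in Puma-/-, 53.9, 47.7 and 60.2 in Mysm1-/-Puma+/- and 50.6, 56.5 and 57.3 in Mysm1-/-Puma-/-. Each of these was below the lowest CD150-positive level of 64.3 CPM. The rise was 0.45 (adjusted p = 0.0186) in wild type, 0.77 ± 0.12 (adjusted p = 8.36e-05) in Mysm1-/-Puma+/-, 0.72 ± 0.11 (adjusted p = 3.13e-05) in Mysm1-/-Puma-/- and 0.50 (adjusted p = 0.0356) in Puma-/-. Leaving out single libraries ended neither call in the Mysm1-/- genotypes. In wild type the call was lost without CD150-negative D2 (0.42, adjusted p = 0.098) or D4 (0.36, adjusted p = 0.159), or CD150-positive D2 (0.43, adjusted p = 0.0996) or W1 (0.41, adjusted p = 0.0503). In Puma-/- it was lost without any one of the 5 libraries, at 0.45 to 0.55 and an adjusted p of 0.0771 to 0.225.

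Eif2ak2 (17:79251904-79281913, minus strand) was at 221, 194 and 220 CPM in CD150-negative wild type and 213, 217 and 216 in Puma-/-, and at 315 and 528 in CD150-positive Puma-/-. Its rise was 0.74 (adjusted p = 0.0221) in wild type and 0.97 (adjusted p = 0.0122) in Puma-/-. Libraries D2 and C2-5, with 525 and 528 CPM, also had the most background reads, 8186 and 9003 CPM. Without D2 the wild-type value was 0.45 (adjusted p = 0.127), and without C2-5 the Puma-/- value was 0.55 (adjusted p = 0.602). The wild-type call was also lost without CD150-negative D2 (0.77, adjusted p = 0.067), D3 (0.68, adjusted p = 0.112) or D4 (0.77, adjusted p = 0.0666). In the Mysm1-/- genotypes Eif2ak2 was at 215, 223 and 181 CPM in CD150-negative Mysm1-/-Puma+/-, 266, 235 and 225 in Mysm1-/-Puma-/-, and 238 to 387 (median 285) in CD150-positive Mysm1-/-Puma-/-.

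Tap2 fell in CD150-positive cells by 0.51 in wild type (adjusted p = 0.0399) and by 0.83 in Puma-/- (adjusted p = 0.00744). Its CD150-negative levels were 191, 216 and 210 CPM in wild type, 216, 182 and 222 in Puma-/-, 231, 264 and 268 in Mysm1-/-Puma+/- and 210, 226 and 243 in Mysm1-/-Puma-/-. Within both called genotypes, every CD150-positive library was below every CD150-negative one. The wild-type call was lost without CD150-negative D2, D3 or D4 or CD150-positive D2 or D3-4, at an adjusted p of 0.0668 to 0.159, and the Puma-/- call without C1-4 (-0.91, adjusted p = 0.0531) or C2-5 (-0.76, adjusted p = 0.171). Bst2 fell by 0.72 in Mysm1-/-Puma+/- (SE 0.17, adjusted p = 0.00732), a call lost without CD150-positive A4 (-0.70, adjusted p = 0.0573).

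In Mysm1-/-Puma-/- cells Xaf1, which encodes a binding partner of the apoptosis inhibitor XIAP (11:72115131-72127235, plus strand), fell by 0.89 (adjusted p = 0.0241). Its levels were 132, 103 and 86.1 CPM in CD150-negative and 32.1 to 88.3 (median 52.0) in CD150-positive cells, and B5 and B6 of the latter overlapped with the former. The call was lost without CD150-negative B1 (-0.72, adjusted p = 0.152) or B3 (-0.82, adjusted p = 0.075). Dropping every library named P or W gave -0.62, which did not pass (adjusted p = 0.116). Libraries so named exist in CD150-positive cells only. A replicate block gave -0.80 (adjusted p = 0.0892). Dropping the libraries of high background gave -0.84 (adjusted p = 0.0594), so Xaf1 passed in neither setting. Over the other groups Xaf1 was at 86.1, 60.6 and 98.1 CPM in CD150-negative and 58.9, 90.8, 60.1 and 43.6 in CD150-positive wild type, 71.2, 87.8 and 79.9 and then 73.3 and 115 in Puma-/-, and 82.8, 69.0 and 56.7 and then 33.1, 56.6, 62.5 and 90.1 in Mysm1-/-Puma+/-. Ifit2 (19:34625184-34650909, plus strand) rose by 0.61 (adjusted p = 0.0305) in Mysm1-/-Puma-/- cells, from 55.5, 70.2 and 67.1 CPM to 52.7 to 141 (median 96.5). That call was lost without CD150-negative B1, B3 or B5 or CD150-positive B3 or P1, at 0.54 to 0.78 and an adjusted p of 0.0535 to 0.246. With every P or W library dropped, the Ifit2 rise was 0.44 and did not pass (adjusted p = 0.205). Nor did it pass with a replicate block (0.41, adjusted p = 0.249) or with the compared groups alone (0.64, adjusted p = 0.133). Ifit2 was at 61.9, 80.3 and 55.2 CPM in CD150-negative and 106, 80.2, 88.9 and 65.7 in CD150-positive wild type, and at 77.2, 82.6 and 76.4 and then 105, 111, 93.2 and 115 in Mysm1-/-Puma+/-. Puma-/- levels of Ifit2 were 65.5, 57.6 and 64.7 and then 74.7 and 73.6 CPM.

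Whether Mysm1 loss differed between the populations was tested by the difference of the Mysm1-/-Puma+/- effects. No member passed by edgeR or DESeq2 (0.00916% of all genes did by edgeR), none had an unadjusted p under 0.05, and the smallest p belonged to Oas2 (1.31), Ifih1 (0.32), Stat2 (0.65) and Ifit3 (0.90), each with an adjusted p of 1. Ifit3 turned to -0.07 without CD150-positive A4. The difference of the Puma effect on a Mysm1-/- background gave no member either by both tools (0% of all genes by edgeR), nor any at an unadjusted p under 0.05 by edgeR, with Ifit1 (-1.06), Oas2 (-1.22), Bst2 (0.41) and Irf7 (-0.94) at the smallest p and an adjusted p of 1. Without CD150-negative A3, 9 members were higher in the first difference (3.62% of all genes) and 14 lower in the second at an unadjusted p under 0.05. The share of all genes lower in the second is not given here. For Igtp the difference of the Mysm1-/-Puma+/- effects was 0.17 ± 0.32 (adjusted p = 1). The difference of the Mysm1-/-Puma-/- effects, tested after the values were seen, was -0.02 ± 0.30 for Igtp (adjusted p = 0.999) and -0.69 ± 0.54 for Zbp1 (adjusted p = 0.944), so neither passed.

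The rest of the pathway was read from fixed lists in the 10 genotype comparisons. None of the tested ligands (7 of 10 in CD150-negative, 9 of 10 in CD150-positive cells), 11 receptors and signal transducers, 10 inhibitors and 15 sensors and inducers of ligands passed in any of them, and at an unadjusted p under 0.05 no comparison had more than 3 higher or 1 lower in any of these lists. Apart from Puma loss alone, 1.32% to 6.56% of all genes were higher at that p. The share of all genes lower is not given here. Of 48 tested further induced genes, 1 passed for CD150-negative Mysm1-/-Puma+/- against wild type, 5 for CD150-negative Mysm1-/-Puma-/-, 0 and 1 for the CD150-positive counterparts, and 1 each for Mysm1-/-Puma-/- against Mysm1-/-Puma+/- and against Puma-/- in CD150-negative cells, all higher. The shares of all genes that passed in either direction were 0.869%, 2.31%, 0.454%, 0.291%, 1.24% and 1.35% in that order. At an unadjusted p under 0.05, 12 and 19 of the 48 were higher in CD150-negative Mysm1-/-Puma+/- and Mysm1-/-Puma-/- cells against wild type, with medians of 0.20 and 0.32, and 12 and 17 in CD150-positive cells, with medians of 0.29 and 0.35. The shares of all genes higher in those comparisons were 5.53%, 5.64%, 5.38% and 4.56%. Without A3 the CD150-negative Mysm1-/-Puma+/- count was 9 higher (5.13% of all genes) and 5 lower (share not given here), with a median of -0.05. Without D4 it was 8 higher (3.49%). The CD150-positive Mysm1-/-Puma+/- count was 7 without A3 (4.21%), 8 without A4 (6.82%, median 0.20) and 5 without D2 (4.13%). For Mysm1-/-Puma-/- it was 12 without B3 (3.36%) or D4 (5.49%) in CD150-negative cells. In CD150-positive cells it was 9 (3.69%) without D2, a library of high background reads. Cd74, the invariant chain of MHC class II, was called most often. It rose by 1.55 ± 0.34 (adjusted p = 0.0337) and 1.80 (adjusted p = 0.00628) in CD150-negative Mysm1-/-Puma+/- and Mysm1-/-Puma-/- cells, and by 1.69 (adjusted p = 0.0258) in CD150-positive Mysm1-/-Puma-/- cells. The first call was lost without A3 (0.92, adjusted p = 0.0841), D2 (1.38, adjusted p = 0.2), D3 (1.79, adjusted p = 0.0501) or D4 (adjusted p = 0.189), and the second without D2 (1.64, adjusted p = 0.0522). The third was lost without any one of the wild-type libraries, B3 or P2, at 1.57 to 1.78 and an adjusted p of 0.0511 to 0.16. Cd74 was at 20.6 to 35.1 CPM in CD150-negative wild type, 34.9 to 47.2 in Puma-/-, 50.6 to 135 in Mysm1-/-Puma+/- and 62.7 to 133 in Mysm1-/-Puma-/-. In CD150-positive cells it was at 17.4 to 26.2, 36.2 to 48.4, 24.3 to 59.0 and 33.1 to 133 CPM in the same order. The CD150-positive Puma-/- libraries, which have Mysm1, thus also lay above wild type and overlapped with both Mysm1-/- groups. Cd74 is also a marker of B cells, monocytes and dendritic cells. The other calls for CD150-negative Mysm1-/-Puma-/- against wild type were also of antigen presentation and tagging: Nlrc5, the activator of MHC class I genes (0.84, adjusted p = 0.028), the class I genes H2-D1 (0.55, adjusted p = 0.0216) and H2-T23 (0.59, adjusted p = 0.0359), and Uba7, the ISG15 activating enzyme (0.73, adjusted p = 0.0445). Each of these 4 calls was lost without B1 (adjusted p = 0.0895 for Nlrc5, 0.0651 for H2-D1, 0.0572 for H2-T23 and 0.129 for Uba7), B3 (0.125, 0.109, 0.148 and 0.203 in that order), D2 (0.108, 0.0875, 0.182 and 0.103) or D4 (0.133, 0.0694, 0.116 and 0.178). Without D3 Nlrc5 kept its call and the other three did not (H2-D1 0.0798, H2-T23 0.0703, Uba7 0.108), and without B5 the call of H2-T23 was lost (0.0671).

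Gbp5, a further GTPase, rose by 0.64 (adjusted p = 0.0488) in CD150-negative Mysm1-/-Puma-/- against Mysm1-/-Puma+/- cells. Ly6a, the Sca1 gene of the sort, rose by 1.16 ± 0.27 (adjusted p = 0.0385) in CD150-negative Mysm1-/-Puma-/- against Puma-/- cells. Its levels were 7.39 to 10.7 CPM in CD150-negative wild type, 6.35 to 10.9 in Puma-/-, 16.4 to 23 in Mysm1-/-Puma+/- and 14.2 to 26.2 in Mysm1-/-Puma-/-. In CD150-positive cells they were 8.28 to 11.1, 6.86 to 9.27, 12.1 to 17.6 and 9.67 to 24.1 in the same order. Sca1 was used to sort the cells, and the part of the gate in these levels was not tested. Whether the calls of Gbp5 and Ly6a hold without single libraries is not given here.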

How the data were processed

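RNA of sorted marrow cells was sequenced from libraries made with a stranded low-input kit, per the labels' protocols. Whole-number counts of reads for each gene symbol were deposited by the authors, who per the submitters' processing notes used FastQC, Trimmomatic 0.33, TopHat2 2.0.9, Bowtie 1.0.0, featureCounts, edgeR and R 3.4.2 with build mm9. For the counting, strand setting, annotation and multi-mapping rule are not given in the sources used here. Thus reads of near-identical copies (Oas1a, the Irgm genes, Gbp2 and Gbp3, the Ifit genes) or of overlapping genes could be assigned wrongly. Exons of 12 of the 42 members that could be placed overlap another gene: Oasl1, Ifi35, Dhx58, Eif2ak2, Irf1, Irf7, Irf9, Parp9, Dtx3l, Psmb8, Tap1 and Tap2. Gene positions are those of NCBIM37, and the deposited CPM matrix was not used here. The files held 0 columns of other series.

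All groups of a population were fitted together in edgeR 4.0.16 (R 4.3.3) by the quasi-likelihood test, after filterByExpr and TMM scaling, over 21168 (CD150-negative), 20944 (CD150-positive) or, for population comparisons, 21830 genes. A gene was called at a Benjamini-Hochberg adjusted p under 0.05 over all genes tested, and every adjusted p is from that test unless another tool is named. The SE is approximate, the log2 fold change over the root of F. Log2 CPM used a prior count of 2. There were 16 comparisons. The script was tested on simulated data.

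The members and all lists were chosen with earlier results of these data known. Named were members called in a comparison, the 4 with the largest SD, the highest per kilobase in each role, and the 4 smallest p where none was called. Other members were named after their values were seen. A further gene of the pathway lists is not reported here. Printed promoters are those of the 3 called members with the smallest adjusted p and an ISRE core before the start, a narrowing made after values were seen. The alternatives comprised DESeq2 1.42.0, RLE size factors, unfiltered genes, the compared groups alone, a replicate block, leaving out the P and W libraries or each library in turn, and 2 treatments of background reads.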

Additional observations from a re-analysis of the deposited data

Results flagged for a closer look

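Over the members' levels in groups of 4 to 7 libraries, all CD150-positive, 132 series were examined. Smaller groups, among them every CD150-negative group, were not. In 5 series 1 library was far from the others, a share below the about 1 in 20 that chance gives. The CD150-positive wild-type library D2 had 56.1 CPM of Oas3, with the next library at 36.0, and 525 CPM of Eif2ak2, with the next at 314. D2 also had high background reads (8186 CPM). The wild-type library W1 had 40.9 CPM of Ifi44, with the next at 33.6. In the Mysm1-/-Puma-/- group, B5 had 10.2 CPM of Oasl1, with the next at 5.75, and B5 was also a library of high background (7491 CPM). In the Mysm1-/-Puma+/- group, A4 had 52.5 CPM of Dhx58, with the next at 25.4. The part of background reads in these values was not tested.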

How the results depend on the processing

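Counts of called members depended on the settings more than the fold changes did. The counts in this section are given without the share of all genes called in the same setting. They are therefore not read as results about the members. RLE size factors gave 2 members for CD150-positive Mysm1-/-Puma-/- against wild type in place of 1, and no filter on low counts gave 1 for CD150-negative Mysm1-/-Puma-/- against Mysm1-/-Puma+/- in place of 0. Background reads as a covariate, added after seeing the data, gave 2 for CD150-negative Mysm1-/-Puma+/- against wild type (0), 11 for Mysm1-/-Puma-/- against wild type (1), 11 against Mysm1-/-Puma+/- (0) and 12 against Puma-/- (2), 2 for CD150-positive Mysm1-/-Puma-/- against wild type (1), and 6, 5 and 8 for the populations of wild type (3), Mysm1-/-Puma+/- (2) and Mysm1-/-Puma-/- (3), with the reported counts in parentheses. Leaving out the 4 libraries of high background, also added later, gave 1 for CD150-negative Mysm1-/-Puma+/- against wild type, 0 for Mysm1-/-Puma-/- against wild type and Puma-/-, 0 for both CD150-positive comparisons with wild type, and 1 and 0 for the populations of wild type and Puma-/-. Without the P and W libraries both CD150-positive comparisons with wild type gave 0 and the Mysm1-/-Puma-/- populations 1. The compared groups alone gave 6 for CD150-negative Mysm1-/-Puma-/- and 0 for CD150-positive Mysm1-/-Puma+/- against wild type, and 6 for the Puma-/- populations. DESeq2 gave 3 and 2 for CD150-negative Mysm1-/-Puma+/- and Mysm1-/-Puma-/- against wild type, 5 between these, 3 and 10 for the CD150-positive comparisons with wild type, 2 for CD150-positive Mysm1-/-Puma-/- against Puma-/- and 5 for the wild-type populations.

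Whether the library numbers pair the samples was not settled, and the reported results used no pairing. Of 7 pairs of the same code in both populations, 4 had deviations correlated above 0.1 (-0.08 to 0.42). Of 11 and 6 pairs of the same number between genotypes, 4 and 3 had. The population comparisons may therefore ignore a real pairing. A replicate block by number gave 0 members for CD150-negative Mysm1-/-Puma-/- against Puma-/- (2 without it), 10 and 5 for the CD150-positive comparisons of Mysm1-/-Puma+/- and Mysm1-/-Puma-/- with wild type (1 each), and 7 for the Mysm1-/-Puma+/- populations (2). Its member median for CD150-positive Mysm1-/-Puma+/- against wild type was 0.04, and Irf7 turned to 0.0102 in the difference of the Puma effect. No paired analysis was possible for 6 of the 16 comparisons because the groups shared fewer than 2 numbers.

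When each library was left out, the counts against wild type ran from 0 to 1 (CD150-negative Mysm1-/-Puma+/-), 0 to 0 (Mysm1-/-Puma-/-), 0 to 1 (CD150-positive Mysm1-/-Puma+/-) and 0 to 4 (Mysm1-/-Puma-/-). They ran from 0 to 14 for CD150-negative Mysm1-/-Puma-/- against Mysm1-/-Puma+/-, from 0 to 2 against Puma-/-, and from 0 to 3, 1 to 3, 1 to 5 and 0 to 2 for the populations of wild type, Mysm1-/-Puma+/-, Mysm1-/-Puma-/- and Puma-/-. The Oas2 difference between the Mysm1-/- genotypes of CD150-positive cells ran from -0.80 to 0.35, the latter without A4. Ifit3 in the difference of Mysm1 loss ran from -0.0656, without CD150-positive A4, to 1.27. The cause was not tested. Groups of 2 to 4 libraries and the wide spread of Mysm1-/-Puma+/- limit what could be called.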

Other observations

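The 5 genes outside the members and lists whose log2 CPM, less the population mean, followed the members' mean most closely over the 29 libraries were Trim30d (Pearson r 0.90), Gm4951 (0.89), Ddx60 (0.88), Gm8989 (0.87) and Samd9l (0.87). These correlations describe libraries that share genotype and depth.

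Between the populations, some pathway genes outside the members were called as well. In wild type, Mysm1-/-Puma+/-, Mysm1-/-Puma-/- and Puma-/-, 3, 4, 4 and 2 of 11 receptors and signal transducers passed, 0, 0, 1 and 0 of 10 inhibitors, 3, 3, 4 and 4 of 15 sensors and inducers of ligands, 9, 6, 7 and 6 of 48 further induced genes, and none of 10 ligands. The shares of all genes that passed were 7.15%, 5.90%, 12.3% and 4.94%. The receptor chain Ifnar2 fell in CD150-positive cells by 0.81 in wild type and by 0.89 in Mysm1-/-Puma-/-, and Ifngr2, a chain of the type II receptor, fell by 0.80 in Mysm1-/-Puma+/- and by 0.74 in Mysm1-/-Puma-/-. In wild type Irf8 fell by 2.95 and Tlr7 by 3.67, both genes of dendritic cells and monocytes, and the guanylate binding protein genes Gbp4 and Gbp9 rose by 1.69 and 1.76. Summed dendritic cell markers were at 618 to 747 CPM in CD150-negative and 111 to 176 CPM in CD150-positive wild-type libraries. This sum includes Flt3, which is also one of the stem and progenitor markers, so it is not specific to dendritic cells.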
